A study of Sus scrofa with 3 samples.

Results

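The genes of MHC class I and class II antigen presentation were examined in pig liver. The 10 genes were chosen by symbol, namely the swine leukocyte antigen (SLA) genes SLA-1, SLA-2, SLA-DRA and SLA-DQB1, the light chain gene B2M, the peptide transporter genes TAP1 and TAP2, the immunoproteasome genes PSMB8 and PSMB9, and CD74. Of these 10 symbols, 8 were listed among the 34579 features (22945 of them mRNA), and all 8 had an FPKM (fragments per kilobase of transcript, with a scaling between libraries) of at least 1 in every library. SLA-2 and CD74 were not among the listed symbols and have no values here. The study asked how testosterone deficiency changes the liver transcriptome of male pigs on a diet rich in fat and cholesterol (HFC). Liver RNA of Chinese Wuzhishan miniature pigs was sequenced as 3 libraries, 1 for each group. The labels give an age of 6 to 7 months, which by the study's methods is the age when the pigs were obtained, and the livers were taken after the acclimation and diet periods that followed. IM were intact males, CM were castrated males, and CMT were castrated males that were given testosterone propionate by injection from castration on. By the study's methods, pigs that were not castrated had a sham operation. Pigs of all groups, the intact ones included, received the HFC diet, and none of the libraries represents a normal diet. Each library was a pool of 3 pigs according to the sample labels, while the study's methods describe larger groups and do not state how many pigs were pooled. The variation between pigs therefore cannot be seen in these libraries, and no difference between them has a replicate check here.

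Every nucleated cell shows peptides of its own proteins on MHC class I molecules, which consist of a polymorphic heavy chain and beta 2-microglobulin. The peptides are cut by the proteasome, or by the immunoproteasome in which interferon-induced catalytic subunits replace the constitutive ones, and are carried into the endoplasmic reticulum by the TAP transporter for loading. MHC class II molecules are pairs of an alpha and a beta chain that present peptides of ingested proteins to helper T cells, and in liver they are found mainly on Kupffer cells, dendritic cells, B cells and sinusoidal endothelium, while hepatocytes carry class I. Interferon gamma raises both classes, acting in part through the factor IRF1 and the transactivators NLRC5 for class I and CIITA for class II.

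Whole read numbers could be worked out from the values of 23090 of the 24277 features above 0, and these reads summed to 32197628 (IM), 36126730 (CM) and 25419901 (CMT). Intervals below are 95% exact binomial intervals on the reads of 2 libraries, and they cover counting error only. They exist for TAP1, TAP2, PSMB8, PSMB9, SLA-DRA and SLA-DQB1. For B2M and for all 7 listed class I heavy chain genes no whole number of reads was recovered, so these values carry no interval. Hepatocyte markers were all 12 listed, with a summed FPKM of 1202010 (IM), 906247 (CM) and 965780 (CMT), and these defining transcripts of the labelled tissue were present in every library. In bulk liver, fewer cells of a type and less RNA per cell cannot be told apart.

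Transcripts of the class I molecule itself stood near the top of the liver transcriptome in all 3 libraries, and SLA-1 was much higher in CM than in the other two. SLA-1, a classical class I heavy chain gene, had an FPKM of 7826 (IM), 20796 (CM) and 6203 (CMT). B2M, which encodes beta 2-microglobulin, had an FPKM of 23911 (IM), 32486 (CM) and 26365 (CMT). Both lay above the 98th percentile of mRNA features in every library, at percentiles 98.9, 99.7 and 98.7 for SLA-1 and 99.7, 99.8 and 99.7 for B2M in IM, CM and CMT. Values given as a set of 3 without group names are always in the order IM, CM, CMT. The SLA-1 value of CM was 2.66-fold that of IM and 3.35-fold that of CMT, and the value of CMT was 0.793 times that of IM. B2M differed less, with CM at 1.36-fold the value of IM and 1.23-fold that of CMT. The heavy chain to light chain ratio of FPKM values was therefore highest in CM, with SLA-1 over B2M at 0.327 (IM), 0.640 (CM) and 0.235 (CMT).

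**Figure D1:**
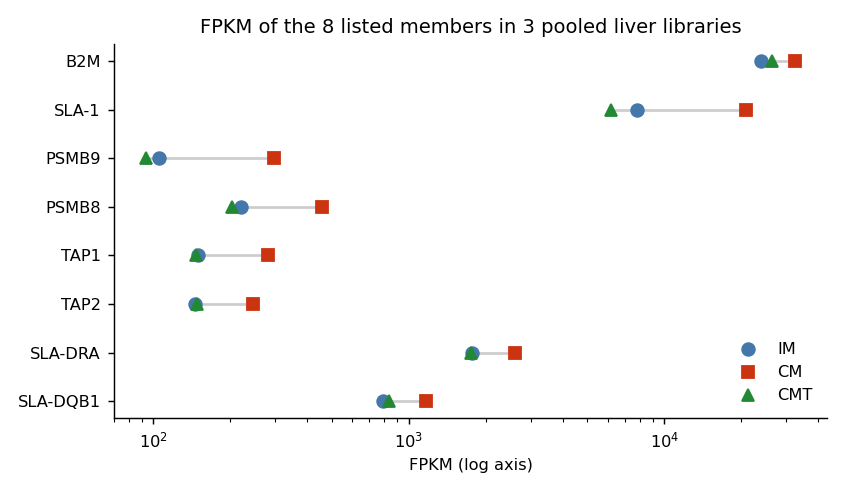
FPKM (log axis) of the 8 listed genes, with 1 point for each pooled library (IM, CM, CMT) and a grey line spanning the 3 values. For every gene the CM point lies farthest to the right, and the gap is widest for SLA-1 and PSMB9.

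The other heavy chain genes were also highest in CM, each by less than SLA-1. SLA-3, a further classical heavy chain gene, had an FPKM of 2671 (IM), 4291 (CM) and 2830 (CMT), a ratio of CM to IM of 1.61. SLA-7 had 609, 1143 and 680.3, a ratio of 1.88, and SLA-8, a nonclassical gene like SLA-7, had 208, 393 and 239, a ratio of 1.89. SLA-5 and SLA-6 stayed below 1.5-fold, at 1.46 and 1.21. Summed over the 6 heavy chain mRNA features the FPKM was 12312 (IM), 28048 (CM) and 11199 (CMT), and SLA-1 made up 63.6%, 74.1% and 55.4% of it. Without SLA-1 the sum was 4485, 7252 and 4996, so that CM was still 1.62-fold IM and 1.45-fold CMT. Class I heavy chain genes are close paralogs and highly polymorphic, and the way shared reads were assigned is not given in the sources used here, so the split of these values between the genes is uncertain. An unnamed entry, LOC100513601, for which the RefSeq gene table gives SLA-1 among its synonyms and which precedes SLA-2 in that table, had an FPKM of 5149 (IM), 17942 (CM) and 3652 (CMT). Its ratio of CM to IM was 3.48, and whether the same reads were counted in it and in SLA-1 was not tested.

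Both chosen immunoproteasome genes, PSMB8 and PSMB9, were more than 2-fold higher in CM, and PSMB9 had a ratio close to that of SLA-1. PSMB9, which encodes the catalytic subunit that replaces PSMB6, had an FPKM of 105 (IM), 297 (CM) and 93.5 (CMT), from 1421, 5451 and 1024 reads. PSMB8, whose product replaces PSMB5, had an FPKM of 220.3 (IM), 455 (CM) and 204 (CMT), from 1943, 5468 and 1460 reads. CM was the high library for both, and IM and CMT lay close together. For PSMB9 the CM value was 2.82-fold that of IM (interval 2.66 to 2.99) and 3.18-fold that of CMT (2.97 to 3.40). For PSMB8 it was 2.07-fold that of IM (1.96 to 2.18) and 2.23-fold that of CMT (2.11 to 2.37). CMT against IM gave 0.887 for PSMB9 (0.817 to 0.961) and 0.925 for PSMB8 (0.863 to 0.990), so both intervals end below 1 while the differences are far smaller than those to CM. The recovered length of PSMB9, by which its FPKM is divided, was 5370 bases, and an entry annotated as a PSMB9-like gene, LOC100520085, had nearly the same values at 99.8 (IM), 284 (CM) and 90.3 (CMT), where reads shared with PSMB9 were not tested.

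The listed constitutive catalytic subunits, PSMB6 and PSMB7, did not have this pattern. PSMB6 had an FPKM of 1190.4 (IM), 1031 (CM) and 1271 (CMT), a ratio of CM to IM of 0.866 (0.802 to 0.935), and PSMB7 had 1318, 1299 and 1456, a ratio of 0.986 (0.923 to 1.05). The FPKM ratio of the immune subunit PSMB9 to its constitutive counterpart PSMB6 was thus 0.0886 (IM), 0.288 (CM) and 0.0735 (CMT). The size of this ratio within a library rests on the recovered lengths, 5370 bases for PSMB9 and 413 for PSMB6. In reads, PSMB9 had 1421 (IM), 5451 (CM) and 1024 (CMT), and PSMB6 had 1234, 1456 and 1071. Only the change of the ratio between libraries is free of the lengths. PSMB10, the remaining inducible subunit, whose gene lies outside the MHC region, had 351 (IM), 467 (CM) and 399 (CMT), and its ratio of CM to IM was 1.33 (1.17 to 1.51). The proteasome activator gene PSME1 had a ratio of CM to IM of 1.03 (0.983 to 1.09).

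Both subunits of the peptide transporter were higher in CM by similar factors. TAP1 had an FPKM of 149 (IM), 280.0 (CM) and 147 (CMT), from 1094, 2795 and 876 reads. TAP2 had an FPKM of 145 (IM), 246 (CM) and 148 (CMT), from 555, 1282 and 461 reads. The products of these genes form a heterodimer, and their FPKM ratio stayed near 1, at 1.03 (IM), 1.14 (CM) and 0.991 (CMT). The ratio of CM to IM was 1.88 for TAP1 (1.75 to 2.01) and 1.70 for TAP2 (1.53 to 1.88), and CM exceeded CMT 1.90-fold (1.76 to 2.06) and 1.66-fold (1.49 to 1.85). Between CMT and IM no difference was detectable at this depth, with ratios of 0.985 (0.900 to 1.08) and 1.02 (0.901 to 1.16).

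The class II chains were higher in CM too, by a smaller factor than SLA-1, TAP1, TAP2, PSMB8 and PSMB9. SLA-DRA, the alpha chain gene of the DR molecule, had an FPKM of 1771 (IM), 2601 (CM) and 1746 (CMT), from 2779, 5560 and 2226 reads. SLA-DQB1, the beta chain gene of the DQ molecule, had an FPKM of 790.1 (IM), 1172 (CM) and 839 (CMT), from 1184, 2392 and 1022 reads. Again CM was the high library while IM and CMT were close. Against IM the CM value was 1.47-fold for SLA-DRA (1.40 to 1.54) and 1.48-fold for SLA-DQB1 (1.38 to 1.59), both just under the 1.5-fold threshold of the study. Against CMT it was 1.49-fold (1.42 to 1.57) and 1.40-fold (1.30 to 1.504). The ratio of CMT to IM was 0.986 (0.932 to 1.04) and 1.06 (0.976 to 1.16), so that no difference was detectable. Within each library SLA-1 exceeded SLA-DRA by a different factor, 4.42 (IM), 7.995 (CM) and 3.55 (CMT).

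**Figure D2:**
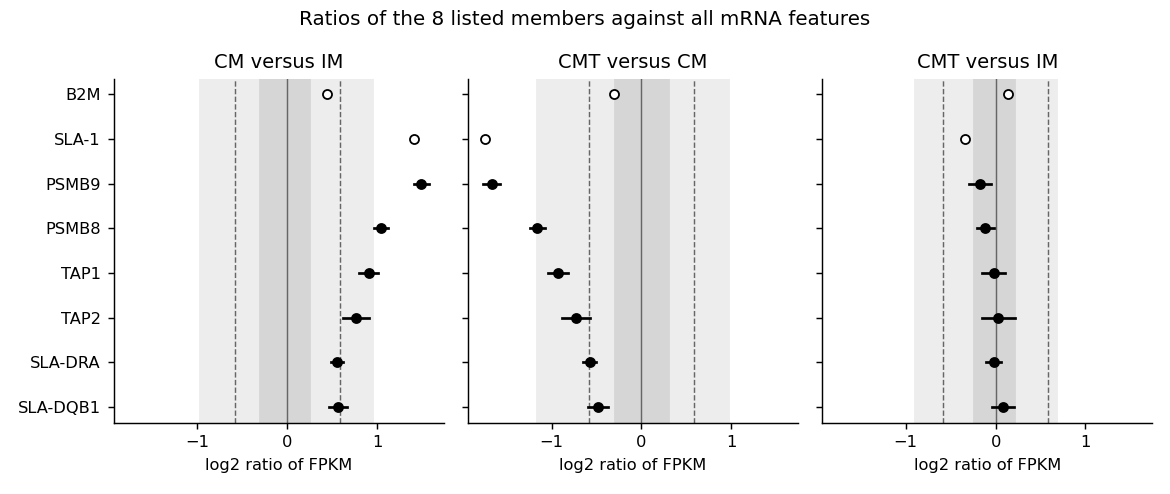
The log2 ratio of FPKM for the 8 listed genes in CM against IM (left), CMT against CM (middle) and CMT against IM (right). Horizontal lines are 95% exact binomial intervals (counting error only), open circles are genes without recovered reads, the dashed lines mark 1.5-fold, and the light and dark grey bands hold the middle 90% and 50% of 15613 mRNA features. All 8 points lie above 0 in the left panel and below 0 in the middle one, and within 1.5-fold in the right one.

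The order of levels was largely the same in the 3 libraries. On the FPKM scale, which is per length, B2M came first, followed by SLA-1, SLA-DRA, SLA-DQB1 and PSMB8 in each of them. The lower places changed. In IM, TAP1 and TAP2 followed and could not be told apart (ratio 1.03, interval 0.928 to 1.14), with PSMB9 last. In CM, PSMB9 moved ahead of TAP1 by a ratio of 1.06 (1.01 to 1.11) and TAP1 ahead of TAP2 by 1.14 (1.06 to 1.22). In CMT, TAP2 and TAP1 again could not be told apart (1.01, 0.899 to 1.13) and PSMB9 was last. The place of PSMB9 rests on its recovered length of 5370 bases, against 2919 for TAP1, and the intervals leave this out. In reads PSMB9 was ahead of TAP1 in each library, with 1421 (IM), 5451 (CM) and 1024 (CMT) against 1094, 2795 and 876.

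Counted against a threshold of 1.5-fold, 5 of the 8 listed genes were higher in CM than in IM (SLA-1, PSMB8, PSMB9, TAP1 and TAP2) and 0 were lower. Over all 15613 mRNA features that reached an FPKM of 1 in each library, 11.1% were higher and 12.1% lower. On the log2 scale the median CM to IM ratio was 0.83 over the 8 genes and -0.02 over all features. At 2-fold, 3 of the 8 (SLA-1, PSMB8 and PSMB9) were higher in CM, against 4.61% of all features. In CMT versus CM, 5 of the 8 were lower in CMT, SLA-1, PSMB8, PSMB9, TAP1 and TAP2, and 0 were higher, where 13.5% of all features were lower and 12.1% higher. The median log2 ratio of CMT to CM was -0.83, against 0.01 over all features. At 2-fold 3 of the 8 were lower in CMT, against 6.37% of all features. These comparisons share the CM library, so a high value in that library enters both and the second count does not repeat the first independently. In CMT versus IM, 0 of the 8 passed 1.5-fold in either direction, where 6.67% of all features were higher and 10.1% lower in CMT, and their median log2 ratio was -0.02 against -0.01. The summed FPKM of the 8 genes was 34919 (IM), 58333 (CM) and 35746 (CMT).

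The remaining genes of the pathway were taken from lists of gene function. Of 90 further symbols, 77 were listed and 70 were mRNA features that reached an FPKM of 1 in each library. Of these 70, 15 exceeded their IM value by at least 1.5-fold in CM and 3 fell short of it by as much. Over all features the shares were 11.1% and 12.1%. The median log2 ratio of the 70 was 0.27. In CMT versus CM, 3 were higher and 18 lower, with a median of -0.28, against 12.1% and 13.5% of all features. In CMT versus IM 2 were higher and 2 lower, against 6.67% and 10.1%. These shares are also the background of the list counts that follow.

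Genes of the loading complex in the endoplasmic reticulum had other patterns than the transporter. TAPBP, which encodes tapasin and tethers class I molecules to TAP, had an FPKM of 451 (IM), 501 (CM) and 480.1 (CMT), and a ratio of CM to IM of 1.11 (1.04 to 1.18). PDIA3, an oxidoreductase that folds class I heavy chains and many other glycoproteins, had 3537 (IM), 3604 (CM) and 7401 (CMT), so that CMT was the high library at 2.05-fold CM. The chaperone CALR had its highest value in CMT as well, with 2458 (IM), 2985 (CM) and 3885 (CMT). Over the 15 listed genes of class I peptide supply and loading, 4 were at least 1.5-fold higher in CM than in IM, and these were TAP1, TAP2, PSMB8 and PSMB9. LNPEP, an aminopeptidase, was the only gene of that list besides those 4 to be at least 1.5-fold lower in CMT than in CM, with 12.6 (IM), 17.5 (CM) and 9.54 (CMT).

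Of the 8 class II chain and chaperone genes among the mRNA features, all were higher in CM than in IM in value and 2 passed 1.5-fold, with a median log2 ratio of 0.54. SLA-DQA1, the partner chain of SLA-DQB1, had an FPKM of 960.4 (IM), 1467 (CM) and 1205 (CMT), a ratio of CM to IM of 1.53. SLA-DMA, a subunit of the DM chaperone that exchanges peptides on class II, had 249, 374 and 267, a ratio of 1.501. SLA-DRB1, the partner chain gene of SLA-DRA, differed less, at 825 (IM), 947 (CM) and 722 (CMT). In CMT versus CM 0 of the 8 passed 1.5-fold, and the median was -0.42. Of the 9 listed genes for class II peptide supply, 0 passed 1.5-fold in CM versus IM. CTSB and CTSL, both lysosomal proteases, had their highest and their lowest value in CM. CTSB had 5523 (IM), 7372 (CM) and 4817 (CMT), and CTSL had 9779 (IM), 6527 (CM) and 10581 (CMT).

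**Figure D3:**
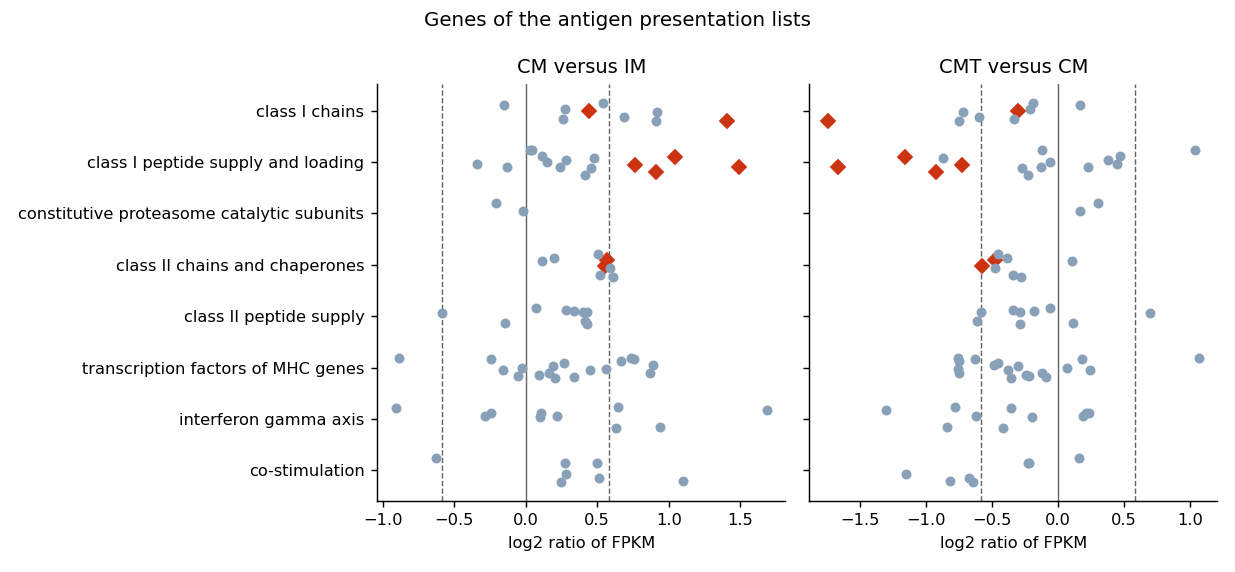
The log2 ratio of FPKM for every mRNA gene of the antigen presentation lists with an FPKM of at least 1 in each library, for CM versus IM (left) and CMT versus CM (right); each point is 1 gene, red diamonds are the 8 chosen genes, blue circles the others, dashed lines mark 1.5-fold, and the vertical scatter within a list only separates points. On the left SLA-1 is farthest to the right among the class I chains, as are TAP1, TAP2, PSMB8 and PSMB9 among the genes of peptide supply, and PDIA3 is the point farthest to the right of its list on the right.

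Among the 18 transcription factors of MHC genes, 5 passed 1.5-fold upwards and 1 downwards in CM versus IM, against 11.1% and 12.1% of all features. CIITA, the class II transactivator, was expressed at a low level of 14.8 (IM), 24.9995 (CM) and 16.1 (CMT), from 113, 260 and 100 reads, a ratio of 1.69 (1.35 to 2.13). NLRC5, the class I transactivator, had 92.4 (IM), 137 (CM) and 80.7 (CMT), so that CM was 1.48-fold IM (1.34 to 1.63) and 1.69-fold CMT (1.51 to 1.89). CM was the high library for both transactivators and also for RFX5, IRF8 and RELB, with ratios of CM to IM of 1.59, 1.67 and 1.85. RFXAP, which sits in one complex with RFX5 on MHC promoters, went the other way, with 83.4 (IM), 45.1 (CM) and 94.3 (CMT), and was 1.85-fold lower in CM. IRF1 stayed below the threshold, with 264 (IM), 318 (CM) and 231 (CMT).

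Interferon gamma itself was at the edge of detection. IFNG had 10 reads in CM, an FPKM of 4.08, and 0 reads in IM and in CMT. The CM value was 2.45 times the FPKM that 3 reads would give in IM and 1.99 times that in CMT. These are not lower limits, since the counting error of the 10 reads is left out. Chemokine genes that interferon gamma induces were well covered. CXCL10, which attracts activated T cells, had an FPKM of 1582 (IM), 5085 (CM) and 2058 (CMT), a ratio of CM to IM of 3.21. CXCL9 had 657, 1257 and 702, a ratio of 1.91. For CXCL9 the paper also used quantitative RT-PCR on several pigs per group, and reports more in CM and less in CMT. It describes a similar tendency for the protein by immunohistochemistry. Of the 10 genes of the interferon gamma axis past the FPKM minimum, 4 were at least 1.5-fold higher in CM than in IM and 1 was lower, and 4 were lower in CMT than in CM. The gene that was lower in CM, SOCS1, a feedback inhibitor of interferon signalling, had 72.0 (IM), 38.3 (CM) and 30.0 (CMT). Of 7 co-stimulation genes, 1 passed 1.5-fold upwards and 1 downwards in CM versus IM, and 4 passed it downwards in CMT versus CM, among them PDCD1LG2, a ligand of PD-1, with 60.8, 73.7 and 33.2.

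The summed levels of all 6 cell type marker lists differed less between CM and IM than that of the 8 genes. Such sums are set mainly by the most abundant genes. These are B2M and SLA-1 among the 8 genes, C1QA, C1QB and C1QC among the macrophage markers, and ALB among the hepatocyte markers. Summed over 13 listed macrophage and Kupffer cell markers, the FPKM was 18173 (IM), 18170 (CM) and 19723 (CMT), a ratio of CM to IM of 0.9998, where the class II list had 1.42 and the class I chain list 1.60. The macrophage markers taken singly were not level. In value 5 of the 13 were higher in CM than in IM, and the median log2 ratio was -0.10. Past 1.5-fold, 1 was higher and 2 were lower in CM, against 11.1% and 12.1% of all features. MARCO, a scavenger receptor of Kupffer cells, was 4.998-fold lower in CM than in IM, with 414, 82.8 and 317. MSR1, another scavenger receptor, was the one that was higher, with 248, 388 and 232. Dendritic cell markers, 9 of 12 listed, summed to 134.7 (IM), 152 (CM) and 176 (CMT), and B cell markers, 7 of 9 listed, to 45.7, 53.5 and 43.7. Endothelial markers summed to 3817 (IM), 3102 (CM) and 3542 (CMT). None of the listed markers was at 0 in any library. The part of cell numbers in the differences of the 8 genes was not tested.

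T and NK cell markers followed the order of the 8 genes only in part. Their sum over 13 listed symbols was 692 (IM), 867 (CM) and 564 (CMT), with a median log2 ratio of CM to IM of 0.35, and 0 of 13 passed 1.5-fold. Between CMT and CM the median was -0.53 and 6 of 13 were at least 1.5-fold lower in CMT, against 13.5% of all features. CD8A, the coreceptor gene for class I, had 59.5 (IM), 82.5 (CM) and 33.5 (CMT). In CMT versus IM 5 of these 13 markers were at least 1.5-fold lower in CMT, where 0 of the 8 antigen presentation genes and 10.1% of all features were. Hepatocyte markers were lower in CM, with a ratio of summed FPKM of CM to IM of 0.754 and a median log2 ratio of -0.40. ALB was the largest item of that sum, with 690375 (IM), 476360 (CM) and 445509 (CMT). In CMT versus CM 10 of the 12 were higher in value, and the median log2 ratio of CMT to IM was -0.08.

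**Figure D4:**
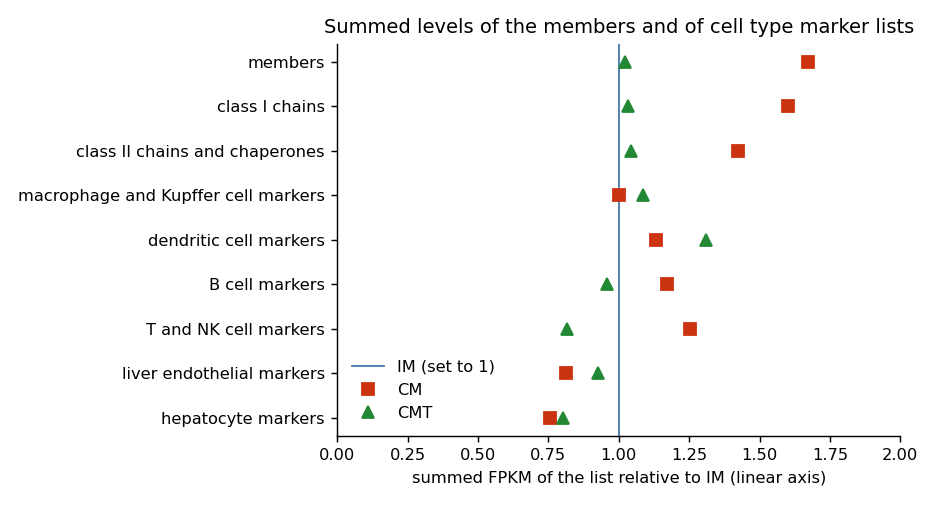
Summed FPKM of the 8 listed genes, the class I and class II chain lists and 6 cell type marker lists, each relative to IM (linear axis, IM set to 1), with 1 point each for CM and CMT and no error since each group is 1 library. The 8 genes lie at 1.67 in CM and 1.02 in CMT, while the macrophage list lies at 0.9998 and 1.09 and the hepatocyte list at 0.754 and 0.803. Each sum is set mainly by the most abundant genes of its list.

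Several of these genes are neighbours. In the RefSeq gene table, whose assembly Sscrofa11.1 differs from the build of the files, SLA-DOB, TAP2, PSMB8, TAP1, PSMB9 and BRD2 follow one another among protein-coding genes of the MHC region. The ratio of CM to IM was 1.42 for SLA-DOB, at an FPKM of 9.06 (IM), 12.9 (CM) and 9.39 (CMT), 1.70 for TAP2, 2.07 for PSMB8, 1.88 for TAP1 and 2.82 for PSMB9. It was 0.780 for BRD2, a chromatin reader gene, with 446 (IM), 348 (CM) and 345 (CMT). The run of higher values in CM therefore ended between PSMB9 and BRD2. SPG11, the neighbour of B2M on another chromosome, had 56.5, 65.2 and 57.0.

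Genes with the most similar pattern were sought among 12127 mRNA features that reached an FPKM of 10 in each library, by the Euclidean distance between centred log2 FPKM values over the 3 libraries. With 3 points per gene such a likeness is a description only. For SLA-1 the nearest were LOC100515628, at 0.00714, IL27RA, an interleukin 27 receptor gene, at 0.0737, and CSAD, an enzyme gene of taurine synthesis, at 0.0772. For PSMB9 they were LOC100520083, LOC100520085 and IL27RA, at 0.0189, 0.0207 and 0.0416, of which LOC100520085 is the PSMB9-like entry that may hold some of the same reads. PSMB9 and SLA-1 were 0.114 apart, with 10 features nearer to SLA-1. For SLA-DRA they were DZIP1, LOC102167597 and IL18BP, the last encoding an inhibitor of interleukin 18, at 0.0160, 0.0162 and 0.0163. SLA-DQB1 was 0.0829 from SLA-DRA, with 88 features nearer.

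The size of all these ratios depends on how the libraries are scaled. The factors between FPKM values and recovered reads were not proportional to the total reads of the libraries, so how the authors scaled them is uncertain. The summed FPKM of all features was lower in CM, and scaling to the total recovered reads would multiply CM values by 1.21 relative to IM. Under that scaling the CM to IM median over all mRNA features moved on the log2 scale from -0.02 to 0.26, all 8 genes passed 1.5-fold, and so did 22.0% of all features in the same direction. In CMT versus CM 7 of the 8 were then at least 1.5-fold lower in CMT, against 22.4% of all features. The direction was the same for all 8 genes in both comparisons under each of the 5 scalings tried. Beside that shifted median of 0.26, the median of the 8 genes was 1.11. The genes and marker lists set beside the 8 genes are given as deposited only, and their direction can depend on the scaling. The factor of 1.21 would bring the CM hepatocyte sum nearer to IM, and would raise PSMB6 and the macrophage sum in CM above IM.

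**Figure D5:**
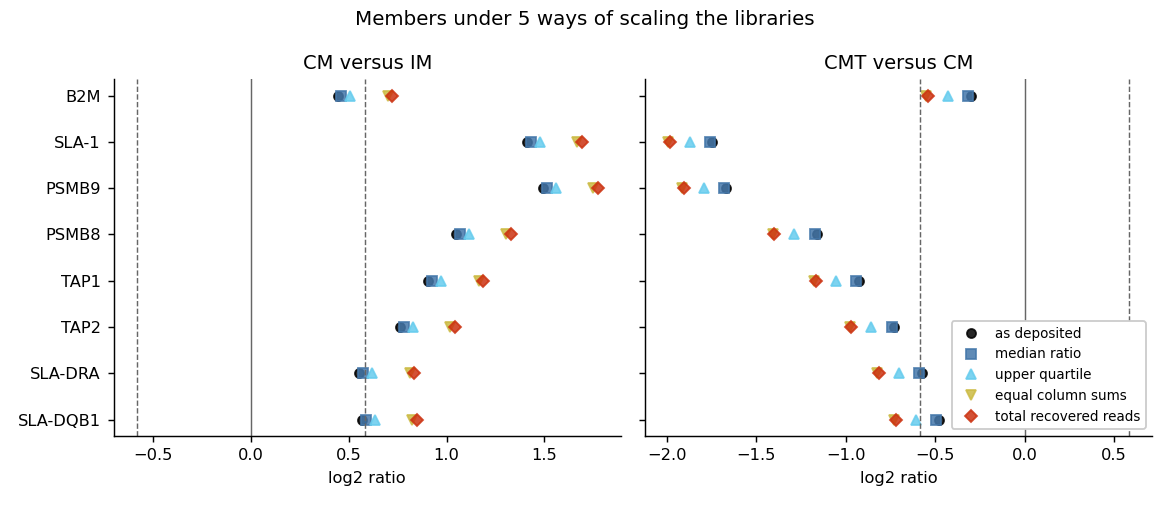
The log2 ratio of the 8 listed genes for CM versus IM (left) and CMT versus CM (right) with the values as deposited and under 4 other scalings of the libraries; dashed lines mark 1.5-fold. Each row of points stays on one side of 0, and SLA-DRA and SLA-DQB1 are the genes whose points straddle the dashed line in both panels. The 4 other scalings all moved the points away from 0, so none of them could have changed a side.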

How the data were processed

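Liver RNA of each group was pooled, poly(A)-selected and sequenced as paired ends. The authors mapped the reads with TopHat to Sscrofa10.2, with FastQC for read quality, and deposited FPKM values per feature in 1 table per library; tool versions, the counting program and the annotation are not given in the sources used here. Values were used as deposited, without rescaling. Reads were recovered from the steps between values, as the smallest whole numbers for a length of up to 10000 bases, in 95.1% of features above 0 and 94.2% of 15613 mRNA features that reached an FPKM of 1 in each library. An FPKM of 1 on 1 kb stood for 2.51 (IM), 3.42 (CM) or 2.04 (CMT) reads, which is not proportional to the total reads. Where the reads of a gene share a divisor it can be lost. The recovered totals lie near the numbers of uniquely mapped reads in the paper, so both mates of a pair may have been counted. Mates of a pair are not independent, and the intervals would then be too narrow. On simulated data the reads were exact for 92.5% of 2973 features. With 1 library per group no p-value was computed; ratios of at least 1.5-fold were counted. The genes and lists were chosen with earlier results of these data known. Of the lists, the genes past 1.5-fold in CM versus IM or CMT versus CM were eligible to be named (at most 6 a list), as were CIITA, NLRC5, IRF1 and IFNG whatever their values, and a gene that the rule covers is not reported here; genes that stayed below, such as PSMB6, PSMB7, PSMB10, PSME1, TAPBP, CALR, SLA-5, SLA-6, SLA-DRB1 and the neighbours were named after their values were seen. Names came from the files and the RefSeq gene table of Sscrofa11.1, whose coordinates were not used, and promoter motifs were not searched. Alternatives were a pseudocount of 1, an FPKM minimum of 10 or none, a 2-fold threshold and 4 scalings; sums of near-identical entries and genes with recovered reads only were added after seeing the data. Python 3.11.15, numpy 2.4.6, scipy 1.17.1 and matplotlib 3.10.9 were used.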

Additional observations from a re-analysis of the deposited data

How the results depend on the processing

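The count of antigen presentation genes past 1.5-fold in CM versus IM (5 of 8) was 3 at 2-fold and 7 under the upper quartile. It was 8 when the libraries were scaled to equal column sums or to the total recovered reads, and the median log2 ratio of 0.83 was then 1.09 and 1.11. In CMT versus CM the count of 5 was 3 at 2-fold, and 7 under the upper quartile, equal column sums and total recovered reads. The median of -0.83 was -0.96 under the upper quartile, -1.08 under equal column sums and -1.07 under total recovered reads. For the other genes of the pathway lists, 18 passed 1.5-fold in CM versus IM, 2 at 2-fold and 33 under equal column sums as under total recovered reads. In CMT versus CM 21 passed, 4 at 2-fold and 32 under equal column sums, and in CMT versus IM 4 passed, 2 of them at 2-fold. By construction these scalings multiply all ratios of a comparison by one factor. A pseudocount of 1, an FPKM minimum of 10 or none, and scaling by the median ratio kept each of these counts within 1.5 times and the sign of each median. Among alternatives added after seeing the data, SLA-1 summed with LOC100513601 had a log2 ratio of CM to IM of 1.58 and of CMT to CM of -1.97, against 1.41 and -1.75 for SLA-1 alone, and the 6 genes with recovered reads alone gave 4 past 1.5-fold in CM versus IM and 4 in CMT versus CM. On the log2 scale the counting intervals reached a median of 0.09 to either side of the ratio of CM to IM, 0.10 for that of CMT to CM and 0.12 for that of CMT to IM, and the spread between pigs is unknown. No paired analysis was possible because each group is 1 pooled library, and for the same reason no replicate could be left out.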
